A study of Mus musculus with 4 samples.

Results

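The 10 genes described here build the machinery that shows peptides to T lymphocytes: B2m, H2-K1, H2-D1, H2-Ab1, H2-Aa, H2-Eb1, Cd74, Tap1, Psmb8 and Nlrc5. They were chosen by name for their place in the pathway, and all 10 were found among the 25567 genes of the count tables. Transcripts had been counted in single nuclei of the mouse hippocampus with Smart-seq2, which amplifies whole transcripts from each sorted nucleus in its own well and has no molecular identifiers. The animals were 8.5 months old and were either wild type (WT) or Fasn-R1812W, which carries a substitution in fatty acid synthase. Nuclei were sorted by flow cytometry either for the neuronal protein NeuN or for EdU, a thymidine analogue that dividing cells build into their DNA. For the EdU+ groups, EdU had been injected at a dose of 100 mg/kg on 3 days, with 2 injections daily, before isolation on day 4. The EdU+ gate takes in any kind of cell that copied its DNA in those days, and how many animals stand behind a library is not given in the labels. Each of the 4 groups, NeuN+ and EdU+ nuclei of WT and of Fasn-R1812W, was 1 library of 384 wells, so no difference between genotypes within a gate has a replicate check.

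Class I molecules pair a heavy chain, here H2-K1 or H2-D1, with the light chain beta-2 microglobulin encoded by B2m, and they carry peptides cut from proteins made inside the cell. Psmb8 is a catalytic subunit of the immunoproteasome, which cuts those peptides, Tap1 is 1 part of the transporter that moves them into the endoplasmic reticulum, and Nlrc5 is a transactivator of class I genes. Class II molecules pair an alpha with a beta chain, as H2-Aa does with H2-Ab1, and H2-Eb1 is a further beta chain. Cd74 is the invariant chain that fills their groove until peptide is loaded. Class I is made by most cells and at low levels by neurons, whereas class II is made mainly by macrophages, dendritic cells and B lymphocytes. Microglia, the resident macrophages of the brain, hold little class II at rest.

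Of the members, 7 of 10 matched a promoter window in the RefSeq table for GRCm38.p6. The 250 bases before the start of transcription are shown for the light chain, both class I heavy chains and 2 class II chains, because these genes were called higher together in the EdU+ gate below. Capitals mark matches on either strand to the motifs searched.
B2m, chr2:122147437-122147686, plus strand: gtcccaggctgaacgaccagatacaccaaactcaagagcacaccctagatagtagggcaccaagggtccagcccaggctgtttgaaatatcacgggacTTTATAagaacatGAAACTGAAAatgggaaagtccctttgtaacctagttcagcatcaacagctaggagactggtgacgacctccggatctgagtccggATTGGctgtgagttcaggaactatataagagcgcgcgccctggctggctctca
H2-K1, chr17:34000348-34000597, minus strand: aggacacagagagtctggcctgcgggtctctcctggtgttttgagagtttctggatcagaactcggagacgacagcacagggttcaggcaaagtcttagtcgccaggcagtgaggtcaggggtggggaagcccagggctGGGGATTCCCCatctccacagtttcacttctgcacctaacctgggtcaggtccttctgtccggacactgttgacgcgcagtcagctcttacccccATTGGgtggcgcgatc
H2-D1, chr17:35262844-35263093, plus strand: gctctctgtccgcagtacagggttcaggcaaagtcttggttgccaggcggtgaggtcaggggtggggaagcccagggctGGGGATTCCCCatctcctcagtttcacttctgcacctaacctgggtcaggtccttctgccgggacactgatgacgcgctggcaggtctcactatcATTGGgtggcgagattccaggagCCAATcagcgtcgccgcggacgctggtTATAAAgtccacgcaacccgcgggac
H2-Aa, chr17:34287824-34288073, minus strand: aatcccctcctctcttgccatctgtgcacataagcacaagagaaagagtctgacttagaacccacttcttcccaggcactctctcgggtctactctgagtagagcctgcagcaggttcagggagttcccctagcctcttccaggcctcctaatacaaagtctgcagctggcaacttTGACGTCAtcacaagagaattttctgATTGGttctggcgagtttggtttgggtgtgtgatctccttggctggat
H2-Eb1, chr17:34305617-34305866, plus strand: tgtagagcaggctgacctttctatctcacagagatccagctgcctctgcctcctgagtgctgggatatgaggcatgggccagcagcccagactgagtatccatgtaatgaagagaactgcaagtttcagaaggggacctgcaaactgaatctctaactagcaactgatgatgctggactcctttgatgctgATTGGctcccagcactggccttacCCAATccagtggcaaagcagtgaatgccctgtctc
The motifs were CCAAT, the core of the box bound by NF-Y, a pair of GAAA repeats with any 2 bases between them, as bound by interferon regulatory factors, a palindrome of the NF-kappaB type, whose letters are the longest run of capitals in H2-K1, TGACGTCA, the cyclic AMP response element, and TATAAA. No match overlapped a match of another motif. All 5 windows held CCAAT, 1 copy in B2m, H2-K1 and H2-Aa and 2 copies in H2-D1 and H2-Eb1, and 34.5% of 27025 promoter windows of this length held it. The NF-kappaB palindrome was present in H2-K1 and in H2-D1, against 0.0222% of all windows. It lay 111 to 101 bases before the start in H2-K1 and 171 to 161 bases before it in H2-D1. The annotated starts thus cut these 2 windows at different points, so their numbers of matches are not counted over the same stretch. The pair of GAAA repeats was found in B2m, where 3.04% of all windows held it. TGACGTCA was found in H2-Aa, where 1.62% held it. TATAAA or its reverse complement was found in B2m and H2-D1, and 12.97% of all windows held it. A match of letters describes the window and does not show that a factor was bound. Of the 2 other matched members, Tap1 held CCAAT once and Psmb8 held TATAAA once.

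Of the 10 genes, 9 lie on chromosomes 2, 17 and 18, and Nlrc5 lies on chromosome 8. On GRCm38, B2m spans chr2:122147686-122153083. The others on chromosome 17 lie between 33996017, the first base of H2-K1, and 35267499, the last base of H2-D1. Tap1 and Psmb8 are neighbours there, at chr17:34187553-34197225 and chr17:34197721-34201454. Some stretches of the class I heavy chains are shared with related genes. Of all 50-base words in H2-K1 transcripts, 9.63% also occurred in transcripts of other genes, and 12.8% did so for H2-D1. H2-Q10 shared most with H2-K1, and H2-Q1 with H2-D1. For the 4 class II genes the share was at most 0.488%, so reads of H2-K1 and H2-D1 are the less certain ones, as the counting rule is not given in the sources used here.

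Libraries held between 36368990 and 96597804 reads, and wells with at least 300 genes and 20000 reads were kept, which left 350 wells for NeuN+ WT, 352 for NeuN+ Fasn-R1812W, 352 for EdU+ WT and 376 for EdU+ Fasn-R1812W. The 10 listed neuron markers summed to 6707 and 6459 CPM in the NeuN+ libraries and to 1410 and 979.9 CPM in the EdU+ libraries. CPM stands for reads of a gene per 1000000 reads of genes outside the mitochondrial genome, pooled over the kept wells. The oligodendrocyte precursor markers, also 10 genes, summed to 12332 and 11639 CPM in the EdU+ libraries. Depth differed within the EdU+ pair: the median kept well held 1025 genes in EdU+ WT and 2935.5 in EdU+ Fasn-R1812W. All 384 pairs of well indices were used in every library, so wells of different libraries share their labels. In EdU+ Fasn-R1812W, low counts followed the indices. H2-Aa, for example, had a read in 103 of 170 wells that shared an index with 1 of its 5 highest wells and in 41 of the 209 that did not, whereas in EdU+ WT it was read in 0 of 159 and 0 of 220. The neutrophil gene S100a8 showed the same split, with 151 of 170 and 7 of 209. A well is therefore called positive for a gene from 10 reads on, a limit set after these values were seen. At 10 reads H2-Aa no longer showed the split, with 5 of 170 and 6 of 209 wells, but other genes still did. S100a8 was then positive in 20 of 170 and 0 of 209 wells, and B2m in 100 of 151 and 106 of 228. The limit thus does not remove the split for every gene in EdU+ Fasn-R1812W. What share of any count came from wells that share an index was not tested.

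All 10 genes had higher pooled levels in the EdU+ than in the NeuN+ library of the same genotype. Levels of B2m were 79.8 and 107 CPM in the NeuN+ libraries of WT and of Fasn-R1812W, and 709 and 2242 CPM in their EdU+ libraries. In the same order, H2-K1 was read at 5.35, 3.44, 343 and 995 CPM, and H2-D1 at 10.9, 27.4, 612 and 1014 CPM. For each of these 3 genes both EdU+ libraries lay above both NeuN+ libraries. Per kilobase of exon, EdU+ Fasn-R1812W held B2m at 2607 RPKM, H2-D1 at 393 RPKM and H2-K1 at 339 RPKM, so the light chain was the most abundant of the 3 on that scale, also in EdU+ WT, with 825, 237 and 117 RPKM.

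Class II genes were nearly unread in NeuN+ nuclei. H2-Aa had 0 reads in both NeuN+ libraries, which allows up to 0.0424 and 0.0416 CPM, against 15.1 and 269 CPM in the EdU+ libraries of WT and of Fasn-R1812W. It was thus at least 357-fold higher in EdU+ than in NeuN+ nuclei of WT and at least 6459-fold higher in those of Fasn-R1812W. Cd74 had 3 reads and 1 read in the NeuN+ libraries, and 20.1 and 257 CPM in the EdU+ libraries. H2-Ab1 was read at 0.0283, 5.62, 24.0 and 348 CPM, and H2-Eb1 at 0.778, 2.46, 4.72 and 293 CPM, in the order given above for H2-K1. The NeuN+ reads of these 2 beta chains sat in few wells. H2-Ab1 passed 10 reads in 2 NeuN+ Fasn-R1812W wells, and H2-Eb1 did so in 1 NeuN+ WT well and 3 NeuN+ Fasn-R1812W wells.

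The genes that feed class I followed the same order of gates. Tap1 was read at 1.54 and 0.264 CPM in the NeuN+ libraries and at 63.6 and 92.01 CPM in the EdU+ libraries, each pair with WT first. Psmb8 was read at 0.566 and 0.972 CPM against 46.1 and 177 CPM. Nlrc5 was read at 0.438 CPM in NeuN+ WT and had 0 reads in NeuN+ Fasn-R1812W, against 3.02 and 81.5 CPM in the EdU+ libraries. By ratio, Nlrc5 thus lay further apart between the EdU+ libraries than between the gates of WT. Without a test, 8 of the 8 members abundant enough to be counted were at least 2-fold higher in EdU+ than in NeuN+ nuclei of WT, where 23.9% of genes were higher and 22.2% lower, and 10 of 10 were so in Fasn-R1812W, where 24.7% were higher and 21% lower.

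**Figure D1:**
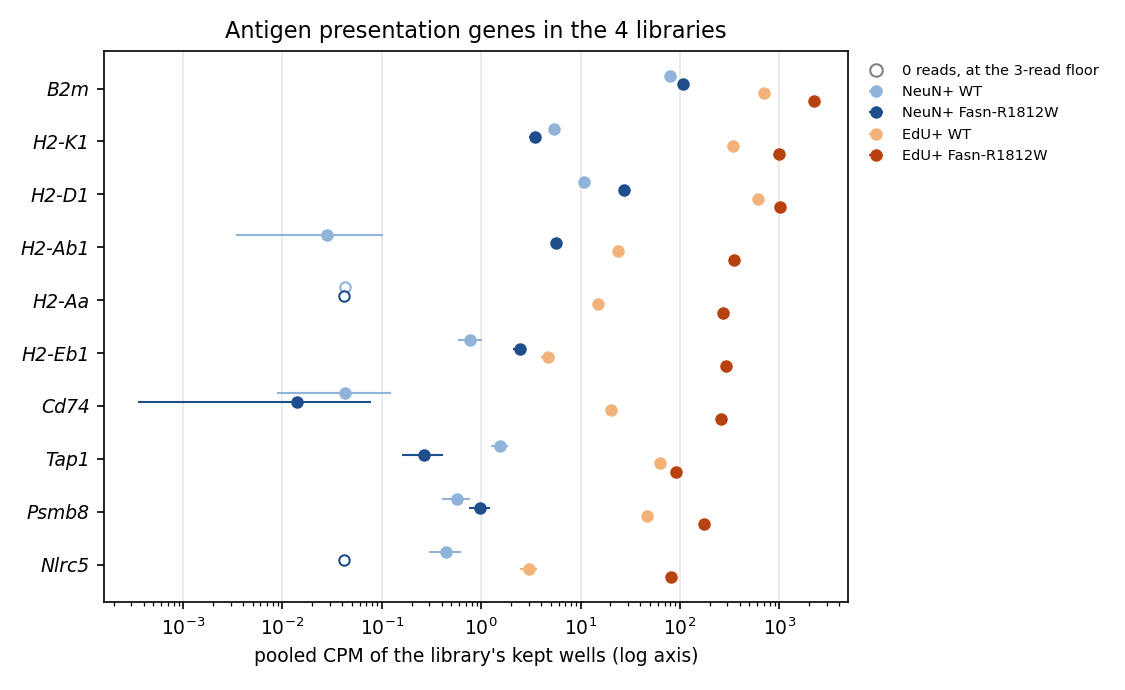
Pooled CPM of each gene (log axis) in the 4 libraries, 1 point per library, with bars for the exact Poisson 95% interval of the count and open points at the 3-read floor where no read was found. For every gene the EdU+ point of a genotype lies to the right of its NeuN+ point, and in EdU+ Fasn-R1812W the levels run from 81.5 CPM for Nlrc5 to 2242 CPM for B2m.

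The gates were tested with edgeR's quasi-likelihood test on the 4 library sums, with gate and genotype as terms, which leaves 1 residual degree of freedom. That 1 degree of freedom is the difference in gate effect between the genotypes, since no group had a replicate. The spread of a gene also drew on the other genes, weighted as 5.86 further degrees of freedom. The p-values therefore do not measure the spread between like libraries. At a Benjamini-Hochberg adjusted p of 0.05 over 16542 genes, 9 of 10 members were called higher in EdU+ and 0 lower, where 6.31% of all genes were called higher and 4.43% lower. The median log2 difference of the 10 members was 7.003, against -0.07 for all genes tested. B2m rose by 3.76 on the log2 scale (edgeR adjusted p = 0.00311), H2-D1 by 5.50 (edgeR adjusted p = 0.00122) and H2-K1 by 7.08 (edgeR adjusted p = 0.00222). H2-Ab1 rose by 7.12 (edgeR adjusted p = 0.00477) and Psmb8 by 6.93 (edgeR adjusted p = 0.00233). Tap1 (0.0103), Cd74 (0.00328), H2-Aa (0.00155) and H2-Eb1 (0.0459) were the other members called, each with its edgeR adjusted p. Nlrc5 was not called, at a log2 difference of 7.10 and an edgeR adjusted p of 0.222, although both EdU+ libraries lay above both NeuN+ libraries. At an unadjusted p under 0.05, 9 members were higher and 0 lower, where 13.1% of all genes were higher and 11.4% lower. DESeq2 and a fit without each gene's top well called Nlrc5 as well, and setting counts under 10 reads to 0 lost H2-Eb1, at an edgeR adjusted p of 0.0791.

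The gates differ in the kinds of cell they hold, and fewer cells of a type cannot be told apart from less RNA per cell in these sums. Microglia markers, 15 genes, summed to 96.6 and 149 CPM in the NeuN+ libraries and to 4783 and 4160 CPM in the EdU+ libraries, WT first. Leukocyte markers, 10 genes, summed to 89.1 and 96.3 CPM against 1217 and 2751 CPM. The share of the gate difference that moves with these markers was not tested.

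Of 48 other genes of the pathway, listed by role, 47 were found and 45 were tested by gate. EdU+ libraries were higher for 12 of these 45 and lower for 0, where 6.31% of all genes were called higher and 4.43% lower. Their median log2 difference was 2.07, against -0.07 for all genes. Among class I and class I-like heavy chains, H2-T23, which encodes the class I-like molecule Qa-1, was read at 7.78 and 10.05 CPM in the NeuN+ and at 85.9 and 149 CPM in the EdU+ libraries (edgeR adjusted p = 0.00630). H2-Q4, H2-Q6 and H2-Q7 were called too, but share sequence with their relatives. Of the loading genes, Tapbp, the bridge between transporter and heavy chain, rose by 2.06 on the log2 scale and the chaperone Canx by 1.31, while the chaperone Calr, at 189 and 253 CPM against 616 and 249 CPM, was not called. Proteases that trim the invariant chain or antigen in the class II route were also higher. Ctss rose by 6.89 on the log2 scale, from 2.70 and 11.9 CPM in the NeuN+ libraries to 572 and 813 CPM in the EdU+ libraries, and Lgmn and Ctsl rose by 3.45 and 1.65. Of the regulators, Irf8 rose by 4.97 on the log2 scale, and the interferon-gamma receptor chain Ifngr1 by 4.43. The kinase Jak1, which signals from that receptor, had a log2 difference of -0.09 and was not called, nor were the co-stimulatory genes Cd86, at 0 and 3.37 CPM against 35.3 and 16.6 CPM, and Icosl, at 0.764 and 1.29 CPM against 10.6 and 19.6 CPM. Ciita, the master regulator of class II, was read at 1.94 and 4.62 CPM in the NeuN+ libraries and at 0 and 3.14 CPM in the EdU+ libraries and was not called.

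Within the EdU+ gate the genes were looked at by kind of well. Wells were clustered without the 10 members and without the other listed pathway genes, and clusters were named by marker lists. Immune wells numbered 49 of 352 in EdU+ WT, or 13.9% (exact Clopper-Pearson 95% interval 10.5 to 17.98), and 79 of 376 in EdU+ Fasn-R1812W, or 21.0% (17.0 to 25.5). They fell into 3 clusters. The microglia-like cluster, led by Slc2a5, Tmem119 and P2ry12 among others, held 27 and 30 wells. A cluster led by S100a8, S100a9 and Retnlg, neutrophil-like by its markers, held 22 and 36 wells. A T or NK lymphocyte-like cluster, led by Gzma, Nkg7 and Ncr1, held 0 of 352 and 13 of 376 wells. In this clustering it thus came from 1 library alone and cannot be told apart from that library. Its median well held 898891 reads, against 211302 for all kept wells of that library. Under this clustering, the count of 0 in EdU+ WT allows a share of up to 0.852% of wells. The absence from WT depended on the setting. With a strict well filter of 1000 genes and 50000 reads, the cluster of this name took in 5 WT wells beside 13 Fasn-R1812W wells. Resolutions of 0.5 and 2, and 10 or 30 principal components, again gave 0 and 13. What kind of cell those 5 wells held was not tested.

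The neutrophil-like cluster was mixed, and it was therefore split by marker counts at 10 reads, a split chosen after its values were seen. Wells with at least 3 of 12 neutrophil markers numbered 12 in EdU+ WT and 8 in EdU+ Fasn-R1812W. Of the rest, 4 and 15 wells had at least 3 of the 14 markers of monocytes, macrophages or dendritic cells. They are called macrophage-marker wells below. These 14 markers summed there to 29363 CPM in EdU+ WT, with 4 at 0, and to 19913 CPM in EdU+ Fasn-R1812W, with 1 at 0. Lyz2 gave much of these sums, at 14588 and 13193 CPM, but was also read at 5194 and 5409 CPM in neutrophil-marker wells. In 6 and 13 wells neither count was reached. Microglia markers were present in these wells as well. The 15 microglia markers summed to 6422 CPM in the macrophage-marker wells of EdU+ WT, with 8 at 0, and to 10901 CPM in those of EdU+ Fasn-R1812W, with 1 at 0, against 53210 and 39622 CPM in the microglia-like wells. Tmem119 was at 0 CPM in the macrophage-marker wells of both libraries, whereas P2ry12 and Cx3cr1, also microglia genes, were at 0 and 15.02 CPM in EdU+ WT and at 359 and 1640 CPM in EdU+ Fasn-R1812W. The 600 kept EdU+ wells outside the 128 immune wells are called other wells, and 250 of 303 and 264 of 297 of them had at least 3 of the oligodendrocyte precursor markers. They are not free of immune markers: at least 3 of 8 B lymphocyte markers passed 10 reads in 0 of the 303 and 4 of the 297. No doublet caller was run.

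All 10 genes were at least 2-fold higher in immune than in other EdU+ wells in both libraries, where 22.6% of genes were that much higher and 55.6% that much lower in EdU+ WT, and 25.2% and 43% in EdU+ Fasn-R1812W. The clusters were formed on these same wells, so these ratios are descriptions and were not tested. B2m was read at 2425 CPM in immune and 445 CPM in other wells of EdU+ WT, and at 7070 and 395 CPM in EdU+ Fasn-R1812W. It was the member with the smallest ratio in EdU+ WT, 5.45-fold. Other wells gave 54.4% of its reads there, against 12.7% in EdU+ Fasn-R1812W. H2-K1 was read at 1873 and 107 CPM in immune and other wells of EdU+ WT and at 3242 and 136 CPM in those of EdU+ Fasn-R1812W. H2-D1 was read at 3598 and 152 CPM and at 3374 and 111 CPM, so that its level in immune wells was nearly the same in both libraries. Since depth differed between the libraries, the share of positive wells was also taken with each well thinned to 20000 reads, which left out 0 kept wells, and with a limit of 3 reads. B2m was then positive in 65.3% of immune and 23.1% of other wells of EdU+ WT, and in 81.01% and 35.02% of those of EdU+ Fasn-R1812W, against 67.3%, 23.1%, 89.9% and 46.5% unthinned at 10 reads. H2-K1 was positive after thinning in 40.8% and 4.62% in WT and in 59.5% and 8.42% in Fasn-R1812W, so immune wells were the more often positive in each library.

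The class II genes had few reads outside immune wells. H2-Ab1 was read at 175 CPM in immune and 0.764 CPM in other wells of EdU+ WT, and at 1243 and 4.97 CPM in EdU+ Fasn-R1812W. H2-Aa had 113 CPM and 0 reads in EdU+ WT, at least 1138-fold apart with 3 reads as the floor, and 962 and 3.93 CPM in EdU+ Fasn-R1812W. H2-Eb1 had 35.3 CPM and 0 reads in EdU+ WT, and 1031 and 10.9 CPM in EdU+ Fasn-R1812W. Between 97.3% and 99.0% of the reads of H2-Ab1, H2-Aa, H2-Eb1 and Cd74 in EdU+ Fasn-R1812W lay in immune wells. Cd74 was read at 140 and 1.63 CPM in immune and other wells of EdU+ WT and at 908 and 8.20 CPM in those of EdU+ Fasn-R1812W. Without the 4 wells with B lymphocyte markers, other wells of EdU+ Fasn-R1812W held H2-Eb1 at 4.96 CPM and Cd74 at 2.72 CPM. H2-Ab1 and H2-Aa hardly moved, at 4.74 and 3.91 CPM.

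Among the genes that supply class I, Psmb8 was 108-fold higher in immune than in other wells of EdU+ WT, at 326 against 3.02 CPM, and 173-fold higher in EdU+ Fasn-R1812W, at 629 against 3.63 CPM. Without the 4 wells with B lymphocyte markers, the last of these levels was 1.91 CPM. Nlrc5 was read at 15.7 and 1.06 CPM in EdU+ WT and at 292 and 0.836 CPM in EdU+ Fasn-R1812W. Tap1 had the smallest ratio in EdU+ Fasn-R1812W, 3.78-fold, at 196 CPM in immune and 52.0 CPM in other wells. A single other well held 86.1% of those other reads, and Tap1 passed 10 reads in 6 of the 297 other wells.

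**Figure D2:**
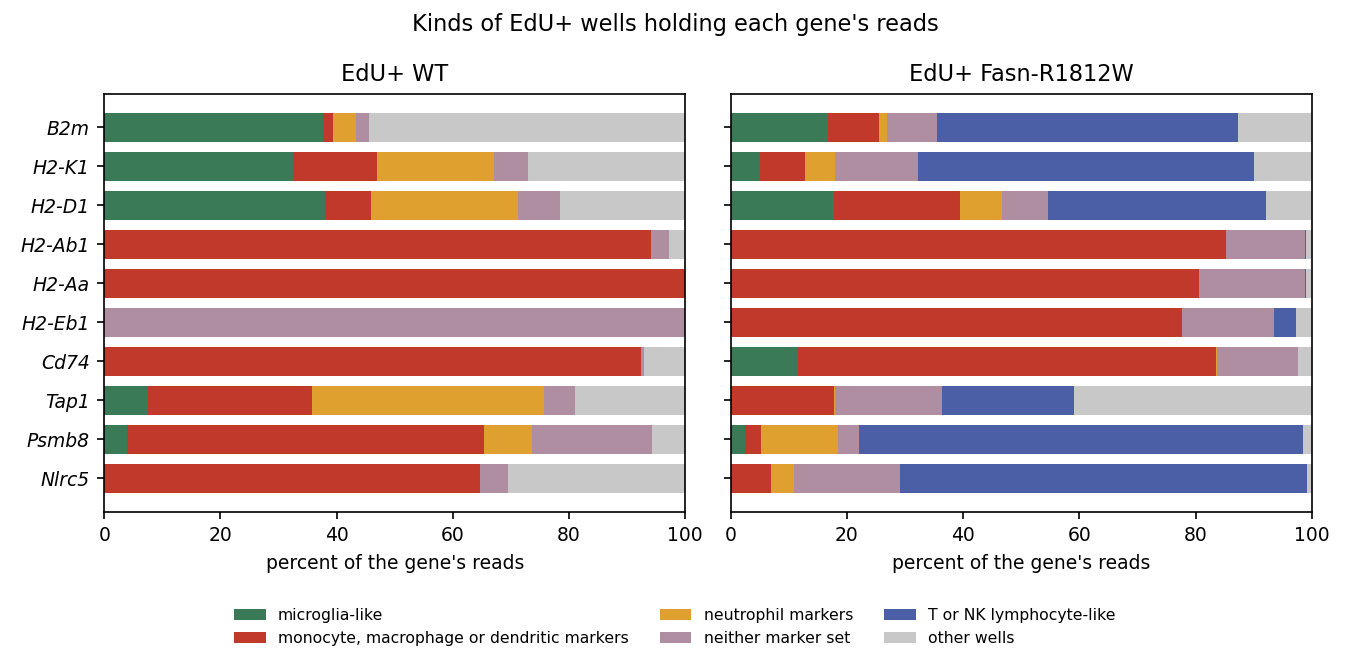
Percent of each gene's reads, horizontal axis, that lay in each kind of well of EdU+ WT (left) and EdU+ Fasn-R1812W (right); the bars of a gene add to 100. Macrophage-marker wells hold 72.0% to 85.2% of the reads of each class II gene in EdU+ Fasn-R1812W, where microglia-like wells hold 11.6% of Cd74 reads, while T or NK lymphocyte-like wells hold 51.8% of B2m and 76.5% of Psmb8 reads in EdU+ Fasn-R1812W.

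Microglia-like wells held class I and hardly any class II. B2m passed 10 reads in 19 of 27 microglia-like wells of EdU+ WT (70.4%, exact Clopper-Pearson 95% interval 49.8 to 86.2) and in 26 of 30 of EdU+ Fasn-R1812W (86.7%, 69.3 to 96.2), against 23.1% and 46.5% of other wells. Median depth was 111186 and 195440 reads in the microglia-like and 90012 and 196676 reads in the other wells. H2-D1 passed 10 reads in 9 of 27 and 9 of 30 microglia-like wells, and H2-K1 in 7 and 11. Their class II counts were of another order. H2-Ab1, H2-Aa and H2-Eb1 passed 10 reads in 0 of 27 and 0 of 30, which allows shares of up to 11.1% and 10%. Cd74 passed 10 reads in 0 of 27 microglia-like wells of EdU+ WT and in 2 of 30 of EdU+ Fasn-R1812W, of which 1 held 2368 reads, and neither held 10 reads of a class II chain. Nlrc5 passed 10 reads in 0 of 27 and 0 of 30. Against other wells, 5 of 5 members tested were at least 2-fold higher in microglia-like wells of EdU+ WT, where 19% of genes were higher and 65% lower. In EdU+ Fasn-R1812W 5 of 7 were higher and 2, H2-Eb1 and Tap1, lower, where 19.9% of genes were higher and 58% lower.

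Neutrophil-marker wells were fewer and also held class I without class II. H2-D1 passed 10 reads in 10 of 12 such wells of EdU+ WT and in 8 of 8 of EdU+ Fasn-R1812W, at pooled levels of 6674 and 2791 CPM. By CPM, B2m was below H2-D1 there, at 1212 and 1159 CPM. In microglia-like wells it was above, at 3178 against 2767 CPM in EdU+ WT and at 4428 against 2116 CPM in EdU+ Fasn-R1812W. Per kilobase of exon, B2m stayed below H2-D1 in neutrophil-marker wells of EdU+ WT, at 1409 against 2588 RPKM. In those of EdU+ Fasn-R1812W it was above, at 1348 against 1082 RPKM. In EdU+ WT, 1 well held 58.4% of the H2-D1 reads of neutrophil-marker wells. In EdU+ Fasn-R1812W, 1 well held 72.8% of the H2-D1 reads of microglia-like wells. Each class II member passed 10 reads in 0 of 12 and 0 of 8 neutrophil-marker wells. Tap1 was read at 1091 CPM in those of EdU+ WT, in 5 of 12 wells, and at 8.04 CPM in those of EdU+ Fasn-R1812W, in 1 of 8.

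The T or NK lymphocyte-like wells, 13 in EdU+ Fasn-R1812W, had the highest pooled B2m and H2-K1 levels of the kinds of immune well. B2m reached 12280 CPM and H2-K1 6098 CPM, and both passed 10 reads in 13 of 13 wells. H2-D1 was read at 4019 CPM and was not highest there, since it was higher in macrophage-marker wells of the same library, at 5586 CPM. Psmb8 and Nlrc5 each passed 10 reads in 9 of 13, at 1430 and 604 CPM. The 13 wells held 9.56% of the reads of the library, but 51.8% of its B2m, 57.9% of its H2-K1, 76.5% of its Psmb8 and 70.1% of its Nlrc5 reads. H2-Ab1, H2-Aa and Cd74 passed 10 reads in 0 of the 13, and H2-Eb1 did so in 1, with 1040 reads.

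**Figure D3:**
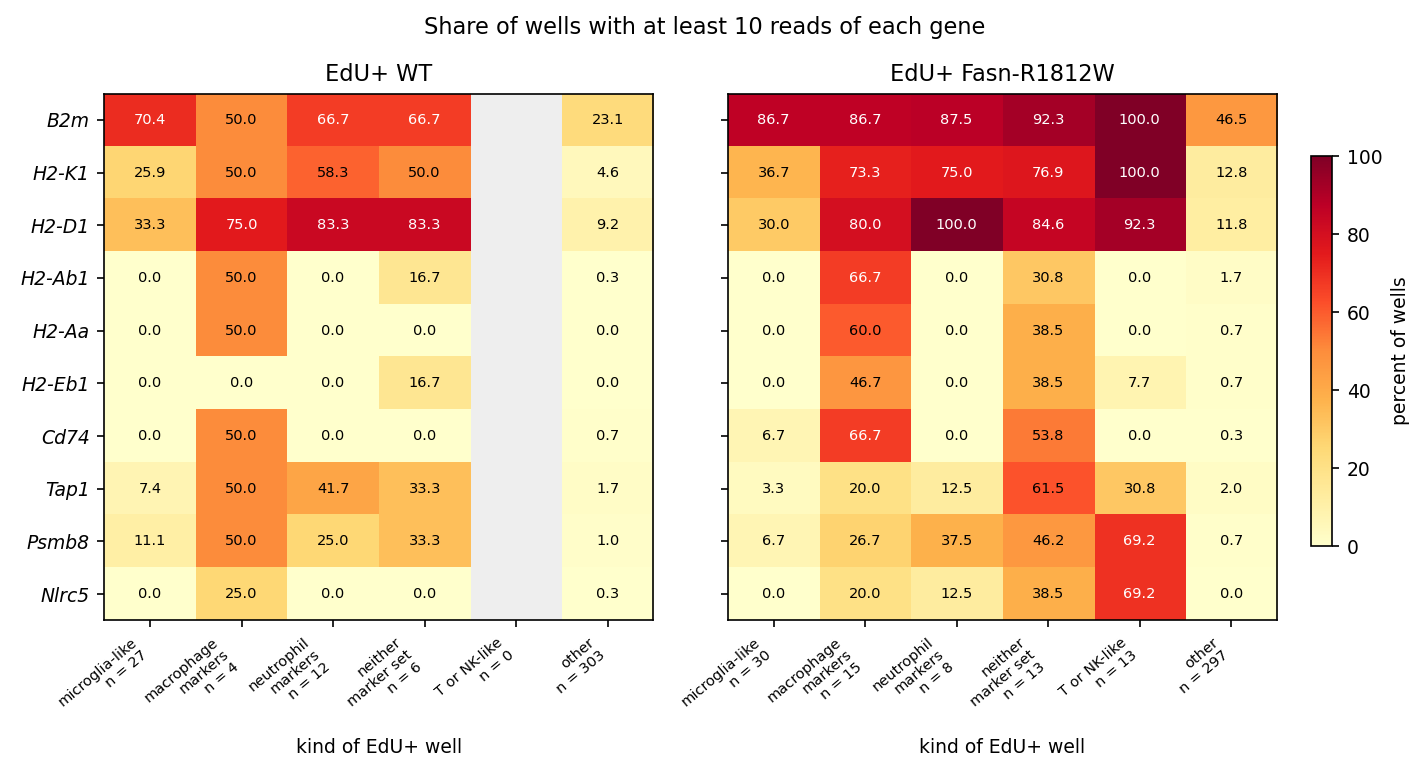
Percent of wells with at least 10 reads of each gene (rows), by kind of EdU+ well (columns, with the number of wells n) in EdU+ WT (left) and EdU+ Fasn-R1812W (right); the grey column had no wells. Macrophage here stands for wells with at least 3 monocyte, macrophage or dendritic markers, and the 3 class II chains read 0.0 in microglia-like and neutrophil-marker wells of both libraries.

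Macrophage-marker wells held most class II reads. H2-Ab1 was read there at 1310 and 7484 CPM, WT first, Cd74 at 1078 and 4685 CPM, H2-Aa at 878 and 5472 CPM, and H2-Eb1 had 0 reads in the 4 wells of WT and 5754 CPM in the 15 of Fasn-R1812W. Per kilobase of exon, the pooled levels of H2-Eb1, H2-Ab1 and Cd74 stood close together in the latter, at 2960, 2914 and 2790 RPKM. H2-Aa stood at 1441 RPKM. In the order just given, the top well of each gene held 47.4%, 53.0%, 40.4% and 51.6% of its reads there. These pooled levels thus rest largely on few wells and do not give the balance of the genes within a well.

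Class II genes were read together in a small number of wells. At least 2 of H2-Ab1, H2-Aa, H2-Eb1 and Cd74 passed 10 reads in 3 of 352 EdU+ WT wells and in 17 of 376 EdU+ Fasn-R1812W wells. These wells held 96.8% and 94.9% of all class II reads of their libraries. Of the 17, 10 were macrophage-marker wells and 6 had neither marker set, and the last, outside the immune clusters, had 5 of 8 B lymphocyte markers. At least 3 of the 15 microglia markers passed 10 reads in 8 of the 17 and in 1 of the 3, and the part of microglia in these class II reads was not tested. All 4 genes passed 10 reads in 8 of the 17 and in 0 of the 3. The highest well of EdU+ Fasn-R1812W held 15058 reads of H2-Ab1, 10722 of H2-Aa, 10356 of H2-Eb1 and 5735 of Cd74, which was 45.1% of all H2-Ab1 reads of the library. The second held 4599, 5410, 7033 and 7175 reads, and the lowest of the 17 held 26, 230, 19 and 24 reads. The 3 EdU+ WT wells held 419, 366 and 26 reads of H2-Ab1, and H2-Eb1 was read in 1 of them. Their class II reads were 2964 to 5742 per 1000000 reads of the well, within the range of 1547 to 59647 in the 17. Ciita passed 10 reads in 3 of the 17 and in 0 of the 3.

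**Figure D4:**
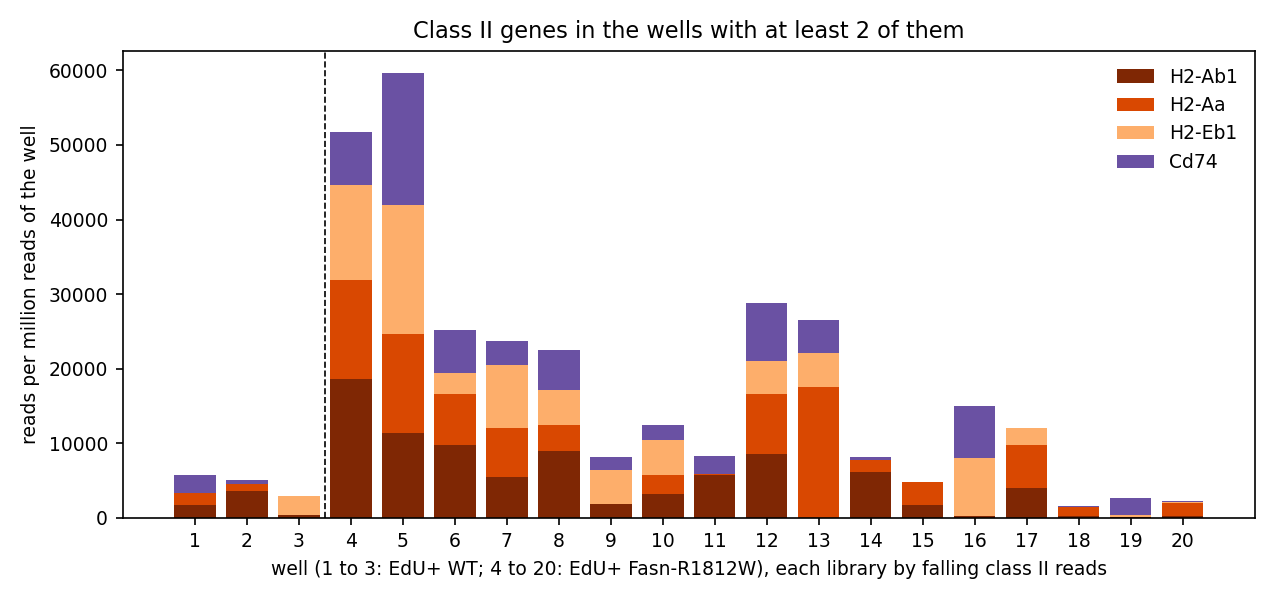
Reads of the 4 class II genes per 1000000 reads of the well (vertical axis, stacked) in each of the 20 EdU+ wells with at least 2 of them at 10 reads, numbered by falling class II reads within a library. Wells 1 to 3 are EdU+ WT and reach 5742, and wells 4 to 20 are EdU+ Fasn-R1812W and reach 59647.

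Class I genes were read together mostly in immune wells. B2m, H2-K1 and H2-D1 all passed 10 reads in 11 of 49 immune and 2 of 303 other wells of EdU+ WT, and in 40 of 79 immune and 6 of 297 other wells of EdU+ Fasn-R1812W. In other wells B2m was mostly read without a heavy chain: of the 70 and 138 other wells positive for B2m, 57 and 100 had neither H2-K1 nor H2-D1 at 10 reads. Full-length reads of 1 nucleus are few, so a missing gene in a well is not an absent transcript.

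Genotypes were then compared. In the fit of all 4 libraries, with genotype averaged over both gates, edgeR's quasi-likelihood test called 0 of 10 members at an adjusted p of 0.05, where 0% of all 16542 genes were called higher and 0% lower. At an unadjusted p under 0.05, 7 members were higher and 0 lower in Fasn-R1812W, where 1.28% of all genes were higher and 0.671% lower. H2-Ab1 had the smallest adjusted p, 0.703 by edgeR, at a log2 difference of 5.01 of Fasn-R1812W over WT. DESeq2 on the same sums called 40 genes, among them H2-Ab1 and H2-Eb1. A single well held 45.1% of the H2-Ab1 reads and 36.8% of the H2-Eb1 reads of EdU+ Fasn-R1812W. In the NeuN+ pair H2-Ab1 had 2 reads in WT and 405 in Fasn-R1812W, and 1 well held 64.0% of the latter. H2-Aa had 0 reads in both NeuN+ libraries, so its genotype difference rests on the EdU+ pair. Of the 45 other pathway genes tested, 0 were called by genotype and 6 were higher at an unadjusted p under 0.05 by edgeR.

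Within the EdU+ pair, without a test, 8 of 10 members were at least 2-fold higher in the Fasn-R1812W than in the WT library and 0 at least 2-fold lower, where 17.9% of genes were higher and 14.6% lower. The ratio was 3.16-fold for B2m, 2.90-fold for H2-K1 and 1.66-fold for H2-D1. The class II genes and Nlrc5 had the largest ratios, 12.8-fold for Cd74, 14.5-fold for H2-Ab1, 17.8-fold for H2-Aa, 26.97-fold for Nlrc5 and 62.1-fold for H2-Eb1. Psmb8 was 3.83-fold and Tap1 1.45-fold higher. With the mean of the wells' CPM in place of pooled reads, H2-D1 and Tap1 turned, at log2 ratios of -0.03 and -0.24, and B2m was no longer 2-fold higher, at 0.97. These ratios moved with the kinds of well. In other wells alone, 2 of the 5 members tested were at least 2-fold higher and 0 lower, where 17.6% of genes were higher and 15.7% lower. H2-D1 and B2m turned, at log2 ratios of -0.45 and -0.17. Nlrc5 had a ratio of -0.17 but too few reads to be counted, at 1.06 and 0.836 CPM, WT first. All its reads in other wells of EdU+ WT lay in 1 well. The 2 higher members were H2-Eb1 and Tap1, and the 1 well with the most reads held 54.7% and 86.1% of their reads in the other wells of EdU+ Fasn-R1812W. Levels in other wells, with WT first, were 445 and 395 CPM for B2m, 107 and 136 CPM for H2-K1, and 152 and 111 CPM for H2-D1. Without the 4 wells with B lymphocyte markers, the Fasn-R1812W levels were 380, 108 and 101 CPM.

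In immune wells alone, 6 of 10 members were at least 2-fold higher in EdU+ Fasn-R1812W, where 45.1% of genes were higher, 25.2% were lower and the median log2 ratio of all genes was 0.65. B2m, the 4 class II genes and Nlrc5 made up the 6. H2-D1 had a log2 ratio of -0.09 and Tap1 one of -0.97. Without the 13 T or NK lymphocyte-like wells, 5 of 10 members were at least 2-fold higher and 0 lower over all EdU+ wells, where 17.2% of genes were higher and 15% lower. B2m then had a log2 ratio of 0.75 in place of 1.66, H2-K1 one of 0.43 in place of 1.53, and Psmb8 one of -0.01 in place of 1.92. The class II genes kept ratios of 3.75 for Cd74, 3.94 for H2-Ab1, 4.21 for H2-Aa and 5.77 for H2-Eb1. In microglia-like wells alone B2m had a log2 ratio of 0.48 and H2-K1 one of -1.17. Here 6 members were tested, of which 2 were at least 2-fold higher and 2 at least 2-fold lower, where 46.1% of genes were higher and 32.6% lower. Among macrophage-marker wells, 4 against 15, 6 of 10 members were at least 2-fold higher and 2, Tap1 and Psmb8, lower in Fasn-R1812W, where 61.6% of genes were higher and 26.6% lower. The median log2 ratio of all genes was 3.68 there and that of the members 1.57.

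**Figure D5:**
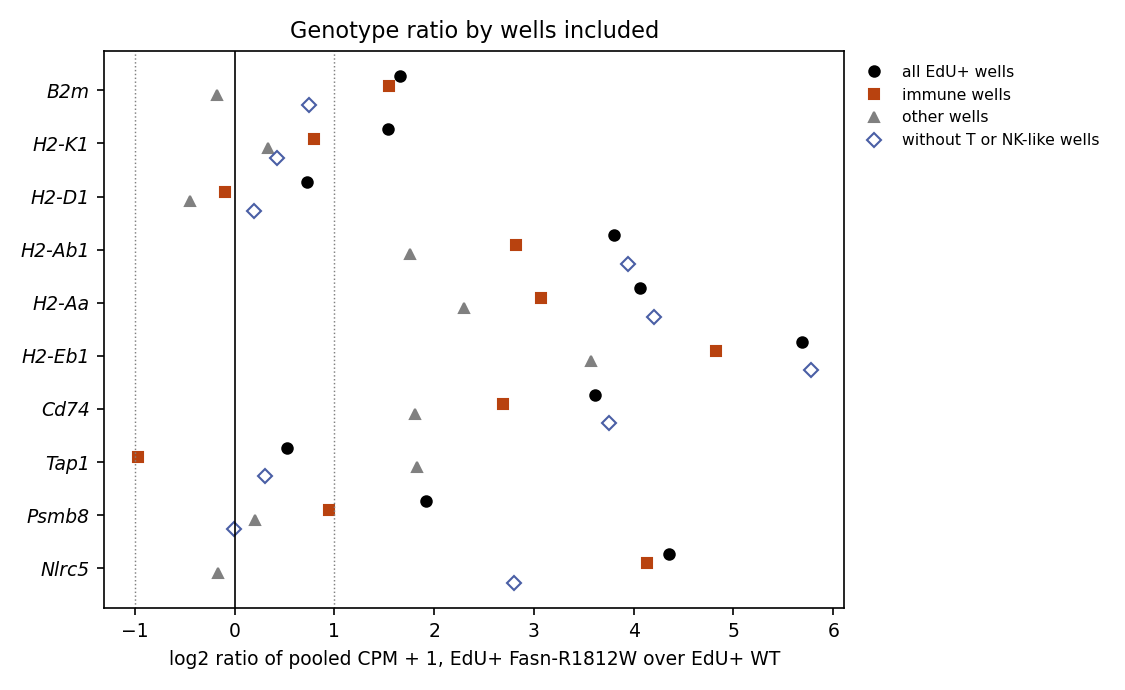
Log2 ratio of pooled CPM plus 1, EdU+ Fasn-R1812W over EdU+ WT, for each gene over all EdU+ wells, immune wells, other wells and all wells without the T or NK lymphocyte-like ones; dotted lines mark 2-fold either way. B2m runs from 1.66 over all wells to -0.17 in other wells, and the 4 class II genes lie above 1 over all wells and immune wells. In other wells H2-Ab1, H2-Aa, Cd74, Psmb8 and Nlrc5 had too few reads to be counted.

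In the NeuN+ pair only B2m and H2-D1 reached the mean of 5 CPM needed to be counted. B2m, at the levels given above, passed 10 reads in 72 of 350 wells (20.6%, exact Clopper-Pearson 95% interval 16.5 to 25.2) and in 68 of 352 (19.3%, 15.3 to 23.8). These intervals cover counting error only and overlap. Thinned to 20000 reads, with a limit of 3 reads, the shares were 15.4% and 16.5%. H2-D1 was 2.52-fold higher in Fasn-R1812W, where 4.67% of genes were at least 2-fold higher and 4.37% lower, and passed 10 reads in 13 of 350 and 15 of 352 wells. With the mean of the wells' CPM its log2 ratio was 0.50 and with thinned wells 0.56, in place of 1.26, so that it was below 2-fold under both. The positive wells held a median of 26 reads of H2-D1 in WT and of 102 in Fasn-R1812W.

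The genes whose levels over the 9 EdU+ clusters were most like the mean of the 4 class II genes were Oasl2, Lcn2, Ltf, Acod1 and Clec4a1, with Pearson's r of 0.979 to 0.991. All 5 were highest in the neutrophil-like cluster, the mixed one described above, and Lcn2 and Ltf encode proteins of neutrophil granules. Likeness over clusters is not likeness over wells. Tmem71, Ugt1a7c, G530012D18Rik, Fam129a and Ugt1a6b were most like the mean of B2m, H2-K1 and H2-D1, with r of 0.989 to 0.995, and all 5 were highest in the T or NK lymphocyte-like cluster. These are descriptions over 9 clusters that share 2 libraries and their depth.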

How the data were processed

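The deposited values were whole-number counts of reads per gene and well, with no normalization by the authors, in 4 tables of 25567 genes and 384 wells; 382 nuclei were stated per library. Trimmomatic 0.36, STAR 2.5.3a and the build GRCm38.p5 are named in the submitters' processing notes. How reads were assigned to genes, with which annotation and with or without strand, is not given in the sources used here, so antisense reads cannot be told apart. Gene symbols were matched for 25395 identifiers, and positions and exon lengths come from GENCODE M21.

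Wells with at least 300 genes and 20000 reads were kept. CPM were the summed counts of a gene over wells, scaled to the sum of all genes outside the mitochondrial genome; ratios took a prior of 1 CPM and were counted where the mean of the pair was at least 5 CPM. Library sums were tested with edgeR 4.0.16 in R 4.3.3 (quasi-likelihood, TMM scaling, gate and genotype as terms, genes with a mean of at least 1 CPM), with DESeq2 1.42.0 as an alternative. The gate term was tried on counts simulated with a dispersion of 0.1, below the 0.512 estimated for these libraries. Of 50 genes each, 50 raised 16-fold and 32 raised 4-fold were called. Of those changed to 0.25-fold and 0.0625-fold, 39 and 48 were called, with 5 false calls among unchanged genes. The fit was not tried at the higher dispersion, nor was its genotype term. Wells were clustered with scanpy 1.11.5 and igraph 0.11.9 (2000 variable genes, 20 principal components, 15 neighbours, resolution 1). A cluster took the name of the best marker list when at least 3 of its markers were higher there. Intervals are exact at 95%, a count of 0 is set at 3 reads, and both cover counting error only, since PCR copies are not independent molecules. Likeness used genes with a mean of at least 20 CPM over clusters.

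The members, the other pathway genes, the markers and the alternatives were chosen with earlier results of these data known. All 10 members are named. Of the other pathway genes, those called in a fit and the 2 most abundant of each role could be named, and Ciita was named after its values were seen. Of these, 1 called gene is not reported here by name. The embryonic nuclei that the series' design mentions are not analysed here.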

Additional observations from a re-analysis of the deposited data

Results flagged for a closer look

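H2-K1 went opposite ways in the 2 gates. Its log2 ratio of Fasn-R1812W over WT was -0.51 in the NeuN+ pair and 1.53 in the EdU+ pair. Tap1 did so too, with log2 ratios of -1.01 in the NeuN+ pair and 0.53 in the EdU+ pair. Neither difference between gates was tested, since each gate and genotype had 1 library. The NeuN+ values rest on few reads: H2-K1 had 378 and 248 reads, WT first, and Tap1 had 109 and 19 reads, and 1 well held 63.2% of the H2-K1 reads and 69.7% of the Tap1 reads of NeuN+ WT.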

How the results depend on the processing

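Members called higher in EdU+ numbered 8 to 10 under each alternative fit, and in both libraries all 10 members stayed at least 2-fold higher in immune than in other EdU+ wells under each definition of immune wells and each filter. Other pathway genes called by gate went from 12 to 25 with DESeq2 and to 7 with the strict well filter of 1000 genes and 50000 reads. Members called by genotype went from 0 to 2 with DESeq2 and to 1 without the gene filter, where H2-Ab1 had an edgeR adjusted p of 0.0451. In EdU+ wells, members at least 2-fold higher in Fasn-R1812W went from 8 to 2 in other wells only and to 5 without the T or NK lymphocyte-like wells, and in NeuN+ wells from 1, H2-D1, to 0 with the mean of the wells' CPM (0) and with thinned wells (0). Some members at least 2-fold higher in EdU+ wells turned. Their log2 ratios were -0.17 for B2m and -0.17 for Nlrc5 in other wells only, where Nlrc5 was too low to be counted. Psmb8 was at -0.0065 without the T or NK lymphocyte-like wells. Fewer wells entered by construction. H2-D1 and Tap1, under 2-fold at 0.73 and 0.53, turned too: H2-D1 to -0.45 in other wells only, -0.09 in immune wells only, -0.03 with the mean of the wells' CPM and -0.05 with thinned wells, and Tap1 to -0.97 in immune wells only, -0.24 with that mean and -0.36 with thinned wells. B2m fell below 2-fold with that mean (0.97) and with thinned wells (0.95). The immune share of EdU+ WT went from 13.9% to 19.6% with 10 principal components and to 6.59% with the strict filter, which kept 167 wells. That of EdU+ Fasn-R1812W went from 21.0% to 27.9% with 10 principal components. It went to 67.6% by counting at least 3 immune markers with at least 3 reads each. With at least 10 reads per marker, a rule added after seeing the data, it was 24.7%. The immune wells under 10 principal components included a cluster of 21 and 30 wells, WT first, named B lymphocyte-like. That cluster was led by Kif11, Dtl and Kif15. The leukocyte marker Ptprc was lower there than in the remaining EdU+ wells, at a log2 difference of -1.64. Those 2 higher shares thus count wells that the naming rule, more than leukocyte markers, made immune. The other causes were not tested. Leaving out a library leaves the fit no residual degree of freedom, so no such test exists. No paired analysis was possible because each group had 1 library.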
